A study of Mus musculus with 16 samples.

Results

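Immunoglobulin genes encode the heavy and light chains of antibodies. The genes described here were chosen by annotation and by their reads: they are the immunoglobulin constant (C), variable (V), diversity (D) and joining (J) genes, pseudogenes left out, whose read counts summed over all 16 libraries reached 100. That gave 220 genes of the 264 such genes in the count table, which holds 50600 genes in all. They were 13 of 13 constant genes, 12 of 14 joining genes, 195 of 218 variable genes and none of the 19 diversity genes, which had 161 reads together. Just inside the threshold were Ighv2-7 with 107 reads and Ighv8-13 with 114, and just outside it were Ighv8-11 with 91 and Ighv8-4 with 87. Of the reads that chose these genes, the CD11c+ brain libraries supplied 0.158%, the spleen libraries 99.1%, the ischemic microglia 0.272% and the control microglia 0.490%. The level of the genes in spleen therefore stands as a description, and calls against spleen support nothing about it.

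The study set cells positive for CD11c, the dendritic cell integrin encoded by Itgax, against microglia, the resident macrophages of the brain, after cerebral ischemia in male mice aged 13 to 14 weeks. There were 4 libraries in each of 4 groups: CD11c-eYFP+ cells from the ischemic hemisphere, CD11c-eYFP+ cells from spleen, CX3CR1+ microglia from the ischemic hemisphere and CX3CR1+ microglia from control brain. All 8 CD11c+ libraries came from Tg(Itgax-Venus)1Mnz mice, in which the Itgax promoter drives the fluorescent protein, and the spleen samples carry no disease label. All 8 microglia libraries came from CX3CR1CreERT2:Rosa26-tdT mice, in which Cre under the Cx3cr1 gene turns on tdTomato. Cells were sorted on the reporter alone, without antibody staining, so mouse line and cell type cannot be told apart. The CD11c+ brain replicates 3 and 4 carry titles of another form than the rest, and results for that group are also given by that split where it changes a call. Nothing in the labels ties a library to a separate animal throughout, so the p-values measure only the spread between these samples, which may be technical.

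An antibody gene is assembled in B cells by joining 1 variable, 1 diversity (heavy chain only) and 1 joining segment, and RNA splicing then connects the assembled exon to a constant region. Ighm and Ighd, the constant regions of IgM and IgD, lie nearest the joining segments and are used first, while class switching places Ighg (IgG), Ighe (IgE) or Igha (IgA) there. The heavy chain locus can also be transcribed without assembly, and such germline transcripts carry no assembled variable exon. Light chains come from the separate kappa and lambda loci.

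The 4 heavy chain and 5 kappa joining segments are shown because they mark positions along each locus. Kappa joining reads were enough for shares only in spleen and in CD11c+ brain replicate 3. The other brain libraries had 0 to 14 of them. Sequences are those of GENCODE M21 on GRCm38, given 5′ to 3′ on the coding strand. Capitals mark the Trp-Gly-X-Gly codons of heavy chain segments and the Phe-Gly-X-Gly codons of light chain segments, the motif that closes the antigen-binding loop. The heavy chain segments lie on the minus strand, Ighj1 at chr12:113429781-113429833, Ighj2 at chr12:113429468-113429515, Ighj3 at chr12:113429085-113429132 and Ighj4 at chr12:113428514-113428567, so that Ighj1 is the farthest from Ighm. The kappa segments lie on the plus strand, Igkj1 at chr6:70722562-70722599, Igkj2 at chr6:70722916-70722954, Igkj3 at chr6:70723223-70723260, Igkj4 at chr6:70723548-70723585 and Igkj5 at chr6:70723886-70723923. The printed stretches of Ighj2, Igkj2 and Igkj5 are shorter than their annotated genes. Those genes span chr12:113429468-113429567 (100 bases), chr6:70722916-70722958 (43 bases) and chr6:70723886-70723927 (42 bases). Reads were counted per gene, so the counts of these genes need not come from the printed bases alone.
Ighj1: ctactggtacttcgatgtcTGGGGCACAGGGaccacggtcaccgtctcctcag
Ighj2: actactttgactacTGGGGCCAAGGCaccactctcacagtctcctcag
Ighj3: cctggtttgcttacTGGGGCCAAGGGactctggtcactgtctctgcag
Ighj4: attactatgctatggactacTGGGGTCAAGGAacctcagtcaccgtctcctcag
Igkj1: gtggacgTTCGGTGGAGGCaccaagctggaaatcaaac
Igkj2: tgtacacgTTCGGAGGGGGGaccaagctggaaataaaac
Igkj3: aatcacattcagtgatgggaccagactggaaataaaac
Igkj4: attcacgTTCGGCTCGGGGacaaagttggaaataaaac
Igkj5: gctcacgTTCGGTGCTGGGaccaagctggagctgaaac
The motif was found on the coding strand of 12 of the 14 annotated joining genes, and among the 9 printed segments only Igkj3 lacked it.

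The 7 variable genes below are shown because reads of single libraries piled up on them. The first 5 led the variable reads of CD11c+ brain replicate 3, Igkv5-39 had the highest mean level over the 16 libraries, and Ighv1-22 led in spleen replicate 4. Each line gives the last 72 bases of the germline variable exon, with the codon of the conserved cysteine in capitals. They lie at chr12:115208095-115208166 (Ighv1-55, minus), chr6:68271196-68271267 (Igkv1-110, plus), chr6:70260409-70260480 (Igkv6-23, minus), chr6:68121756-68121827 (Igkv1-117, plus), chr12:115158403-115158474 (Ighv1-53, minus), chr6:69900424-69900495 (Igkv5-39, minus) and chr12:114746273-114746344 (Ighv1-22, minus).
Ighv1-55: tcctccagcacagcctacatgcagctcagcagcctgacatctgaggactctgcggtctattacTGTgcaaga
Igkv1-110: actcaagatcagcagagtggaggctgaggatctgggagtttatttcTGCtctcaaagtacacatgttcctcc
Igkv6-23: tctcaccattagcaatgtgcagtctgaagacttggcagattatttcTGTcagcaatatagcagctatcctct
Igkv1-117: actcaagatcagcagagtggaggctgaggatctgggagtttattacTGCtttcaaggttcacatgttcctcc
Ighv1-53: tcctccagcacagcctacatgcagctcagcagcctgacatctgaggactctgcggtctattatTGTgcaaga
Igkv5-39: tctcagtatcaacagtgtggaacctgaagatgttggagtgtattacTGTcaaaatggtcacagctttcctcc
Ighv1-22: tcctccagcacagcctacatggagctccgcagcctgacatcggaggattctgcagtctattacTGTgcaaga
Over the whole coding sequence Igkv1-110 and Igkv1-117 were 97.2% identical, and Ighv1-55 and Ighv1-53 were 95.4% identical. Of the 195 variable genes, 159 shared at least one run of 50 bases with another immunoglobulin gene, so reads can be split between close relatives and the level of a single variable gene is uncertain. Among the constant genes Iglc2 and Iglc3 shared such runs with each other, and so did the Ighg genes.

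Library totals ran from 31569304 to 48245164 reads. Levels are counts per 1000000 reads (CPM) after scaling by the trimmed mean of M-values, and differences were tested with edgeR's quasi-likelihood test over 16345 genes, with Benjamini-Hochberg adjustment and a threshold of 0.05. Of the 220 genes, 211 passed the filter on low counts, nearly all through the spleen libraries, so counts over those that passed describe them and support nothing. Each floor is 3 reads summed over a group, and floors and intervals cover counting error only. Fewer cells of a type and less RNA per cell cannot be told apart in these bulk samples. Itgax stood at 478 to 954 CPM in CD11c+ brain and 347 to 742 CPM in CD11c+ spleen, against 26.6 to 92.0 CPM in microglia. Its promoter drives the reporter on which the CD11c+ cells were sorted. This level therefore follows from the sort and does not identify dendritic cells. The 22 B cell markers summed to 592 to 744 CPM in CD11c+ brain, 5598 to 7330 CPM in spleen, 351 to 456 CPM in ischemic microglia and 159 to 171 CPM in control microglia. Such sums are set by the most abundant genes of a list and do not measure B cells. In ischemic microglia 3 of the 22 had no read, and Ms4a1, Cd79a and Pax5, given below, were near 0, though Cd79b was not. The CD11c+ brain libraries carried the 12 microglia markers at a summed 14108 to 15433 CPM, against 35335 to 45307 CPM in ischemic microglia.

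In microglia the immunoglobulin reads were almost all Ighm. This IgM constant gene took 28.2% to 39.9% of the reads of the 220 genes in spleen. It took 94.7% to 96.4% in ischemic microglia and 94.6% to 95.5% in control microglia. In CD11c+ brain replicates 1 to 4 it took 87.6%, 80.9%, 46.2% and 90.0%. Ighm stood at 448, 192, 379 and 363 CPM in the 4 ischemic libraries, against 625, 608, 535 and 593 CPM in the 4 control libraries. All ischemic libraries lay below all control libraries, with replicate 2 the lowest. The mean was 345 ± 109 CPM in ischemic and 590 ± 38.9 CPM in control microglia (SD, n = 4 each), a log2 difference of -0.77 (SE 0.36), which edgeR's fit over all 4 groups did not call (adjusted p = 0.108). Fitted on the libraries of both microglia groups alone, the difference was called (log2 -0.74, edgeR adjusted p = 0.0182), and so it was with library totals in place of TMM (log2 -0.92, edgeR adjusted p = 0.0448).

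Ighd, the IgD constant gene that shares a primary transcript with Ighm, fell in ischemic microglia. It stood at 8.85, 4.30, 8.76 and 6.06 CPM in ischemic libraries, against 21.7, 17.3, 17.1 and 16.8 CPM in control libraries. The groups did not overlap. The log2 difference was -1.38 (SE 0.27, edgeR adjusted p = 0.00104), and it lay between -1.53 and -1.22 under every alternative run. Per 100 reads of Ighm there were 1.67 to 2.31 reads of Ighd in ischemic and 2.82 to 3.48 in control microglia, again without overlap.

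The heavy chain joining segments fell with Ighd. Ighj1 had 61, 27, 61 and 57 reads in ischemic libraries, against 155, 176, 184 and 120 in control libraries, a log2 difference of -1.54 (SE 0.50, edgeR adjusted p = 0.0245). Ighj2 had 6 to 16 reads in ischemic and 40 to 90 in control libraries (log2 -2.52, SE 0.53, edgeR adjusted p = 0.00172). Ighj3 had 4 to 6 and 24 to 67 reads in the same order (log2 -2.98, SE 0.46, edgeR adjusted p = 0.000143), and Ighj4 had 2 to 14 and 22 to 43 (log2 -1.96, SE 0.66, edgeR adjusted p = 0.0303). For each of the 4 segments every ischemic library was below every control library, also when reads are scaled to CPM. Among all tested genes 18.0% were called lower in this comparison. The share of them without overlap was not counted, so the separation has no background here. With limma-voom, 2 of the 5 calls remained, and Ighj1, Ighj3 and Ighj4 were not called (adjusted p = 0.156, 0.0621 and 0.262). In edgeR the call of Ighj1 was lost without ischemic replicate 2 (adjusted p = 0.0705) or control replicate 2 (adjusted p = 0.0585), and that of Ighj4 was lost without any one of ischemic replicates 1, 2 and 3 or control replicates 1, 2 and 3 (adjusted p = 0.0535 to 0.0857), and with a filter on count sums of at least 10 (adjusted p = 0.0516).

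**Figure D1:**
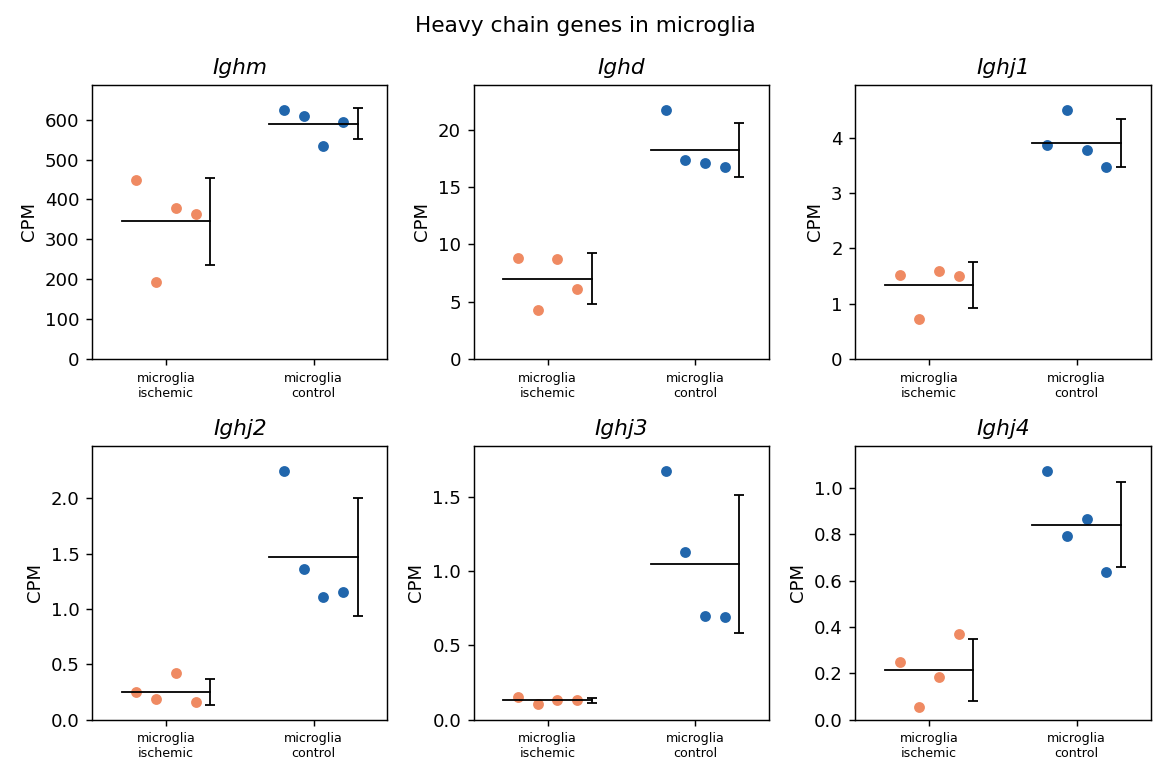
Heavy chain genes in microglia, in CPM on linear axes from 0. Points are libraries, the horizontal line is the group mean and the bar beside it is ± SD (n = 4). In each of the 6 panels all ischemic libraries lie below all control libraries, for Ighm at 192 to 448 CPM against 535 to 625 CPM.

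Between ischemic and control microglia these were the only calls: 5 of the 211 tested genes were lower and 0 were higher, while 18.0% of all tested genes were lower and 17.7% were higher. At an unadjusted p under 0.05 the edgeR counts were 6 lower and 0 higher, and DESeq2 and limma-voom called 0 higher as well. None of the 186 tested variable genes was called by edgeR, and none had an unadjusted p under 0.05. The other constant genes had few reads in either group. Igkc, the kappa constant gene, had 71 to 92 reads in ischemic and 63 to 90 in control libraries, and Igha had 24 to 30 and 19 to 33. Ighg3 had 12 to 19 reads in ischemic and 9 to 11 in control libraries, which did not overlap and were not called (log2 0.64, SE 1.40, edgeR adjusted p = 0.762). The variable genes together had 54 to 80 reads per ischemic library and 50 to 66 per control library. Ighg1 had 0 to 3 reads and 0 to 1 read in the same order, and Ighe and Iglc4 had none in any microglia library. The fit over all 4 groups, which share 1 estimate of spread with spleen among them, called no difference in these genes. Whether depth or that shared spread set the limit was not tested. Pax5, the transcription factor of B cell identity, was at or near 0 in both groups, with 0 to 0.0261 CPM in ischemic and 0 to 0.0617 CPM in control libraries.

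Heavy chain reads of microglia held joining and constant sequence but nearly no variable sequence. Per 100 heavy chain constant reads there were 11.8 to 17.4 variable reads in spleen. There were 0.153 to 0.282 in ischemic and 0.0858 to 0.111 in control microglia. CD11c+ brain lay between, at 1.09, 0.823, 5.18 and 0.312 in replicates 1 to 4. Per 100 heavy chain variable reads there were 4.36 to 6.89 joining reads in spleen, 211 to 357 in ischemic and 936 to 1448 in control microglia. CD11c+ brain again lay between, at 37.8, 30.2, 14.1 and 100 in replicates 1 to 4. Ighj1, the segment farthest from Ighm, took 23.4% to 31.2% of the heavy chain joining reads in spleen. It took 67.5% to 70.1% in ischemic and 43.7% to 58.6% in control microglia. In CD11c+ brain replicates 1 to 4 it took 70.6%, 46.2%, 67.1% and 96.0%, on 17, 13, 76 and 25 joining reads. The share of a segment depends on its own length and on how reads that span segments were assigned. The kappa chain did not show this pattern. Per 100 reads of Igkc there were 39.8 to 49.4 kappa variable reads in spleen, 34.8 to 45.1 in ischemic and 37.8 to 50.8 in control microglia. CD11c+ brain had 58.8, 31.3, 28.2 and 39.4 in replicates 1 to 4.

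**Figure D2:**
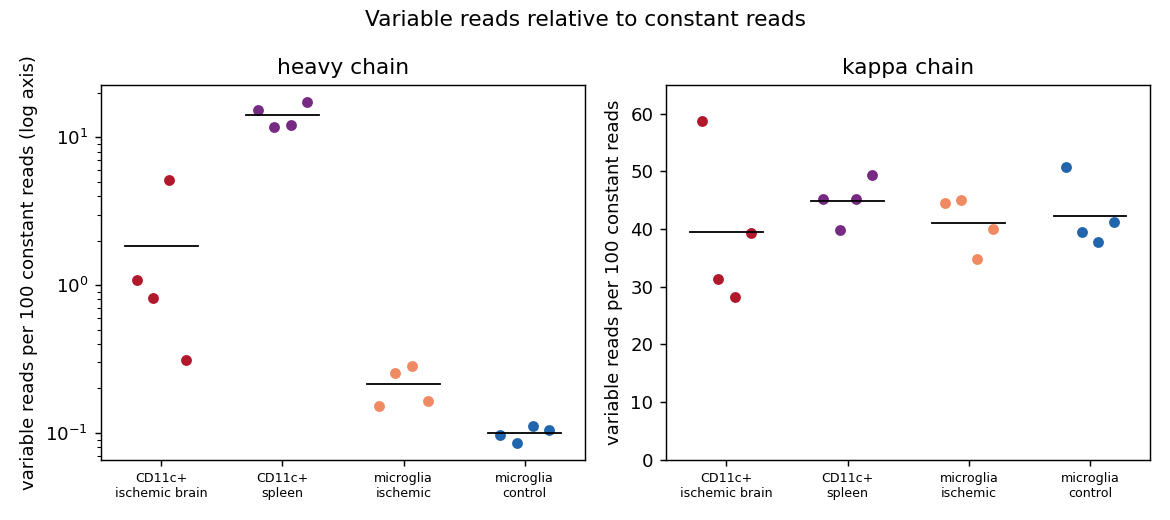
Variable reads per 100 constant reads of the same chain in each library, on a log axis for the heavy chain and a linear axis from 0 for the kappa chain. Points are libraries and lines are group means. The heavy chain values of spleen lie at 11.8 to 17.4, those of microglia at 0.0858 to 0.282 and those of CD11c+ brain between, at 0.312 to 5.18. The kappa values of spleen and microglia share the range from 34.8 to 50.8.

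Light chain reads were also scarce beside the heavy chain. Per 100 heavy chain constant reads the light chain constant genes had 44.7 to 56.2 reads in spleen. They had 0.426 to 1.02 in ischemic and 0.278 to 0.368 in control microglia. In CD11c+ brain replicates 1 to 4 they had 3.77, 6.97, 20.1 and 2.05. When the reads of a brain library are divided by those of the same genes in the 4 spleen libraries together, Igkc, Igha, the Ighg genes and the heavy and kappa variable genes of microglia fall in a narrow low range. For ischemic microglia this was 14.1 to 18.3 reads per 1000000 spleen reads for Igkc, 15.7 to 19.6 for Igha, 23.4 to 30.0 for the Ighg genes, 12.0 to 26.6 for the heavy and 14.0 to 14.9 for the kappa variable genes. For control microglia it was 12.5 to 17.9 for Igkc, 12.4 to 21.6 for Igha, 16.3 to 20.2 for the Ighg genes, 13.3 to 19.0 for the heavy and 11.4 to 14.9 for the kappa variable genes. The lambda constant and variable genes, on few reads, lay between 9.07 and 53.3 in both groups. Ighm, Ighd and the heavy chain joining segments stood above these ranges. Ighm was at 1000 to 2477 reads per 1000000 spleen reads in ischemic and 2846 to 3605 in control microglia, Ighd at 3028 to 6599 and 10842 to 16245, and the joining segments at 495 to 1100 and 2547 to 4389. The source of these reads was not tested.

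**Figure D3:**
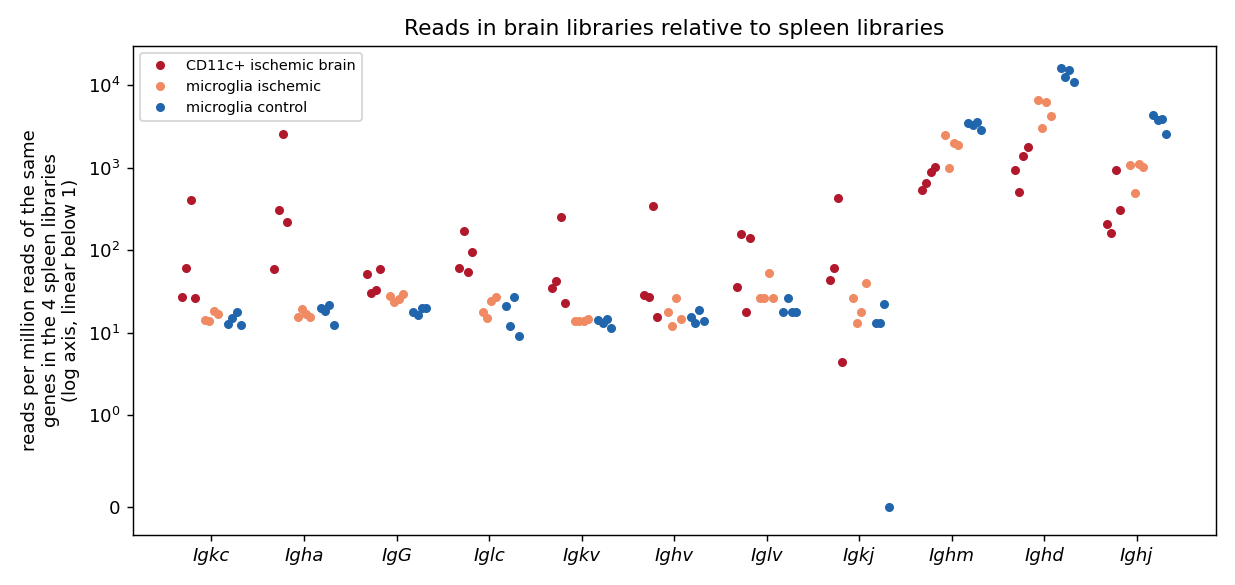
Reads of each brain library per 1000000 reads of the same genes in the 4 spleen libraries, on a log axis that is linear below 1. Points are libraries of CD11c+ ischemic brain, ischemic microglia and control microglia, and IgG stands for Ighg1, Ighg2b, Ighg2c and Ighg3 together. In control microglia Ighm, Ighd and Ighj lie at 2547 to 16245 and each of the other gene groups lies at or below 27.2, with 1 library at 0 for the kappa joining segments.

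The CD11c+ cells of the ischemic brain held less Ighm than the microglia sorted from the same kind of tissue. Ighm stood at 118, 131, 177 and 236 CPM in CD11c+ brain libraries, against 448, 192, 379 and 363 CPM in ischemic microglia. The groups overlapped through ischemic replicate 2. The log2 difference was -1.06 (SE 0.36, edgeR adjusted p = 0.0294). This call was lost without CD11c+ brain replicate 1 or 2 or ischemic microglia replicate 1, 3 or 4 (adjusted p = 0.0647 to 0.0963), and also when only CD11c+ brain replicates 3 and 4 were used (log2 -0.73, edgeR adjusted p = 0.227). Ighd fell to 1.55, 0.756, 2.08 and 3.04 CPM in CD11c+ brain libraries, against 8.85, 4.30, 8.76 and 6.06 CPM in ischemic microglia, with no overlap (log2 -1.92, SE 0.30, edgeR adjusted p = 0.000104). Ighj1 had 12, 6, 51 and 24 reads, against 61, 27, 61 and 57, a difference that was not called (log2 -0.98, SE 0.58, edgeR adjusted p = 0.206). The microglia markers were lower in CD11c+ brain in 12 of 12 genes, with a median log2 difference of -1.68, and their part in the difference of Ighm and Ighd was not tested.

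Igha and Igkc rose in the same comparison, most of all in 1 library. Igha stood at 2.79, 13.3, 108 and 10.8 CPM in CD11c+ brain libraries, against 0.601, 0.797, 0.680 and 0.635 CPM in ischemic microglia. All CD11c+ brain libraries were above all microglia libraries, and replicate 3 was far above the other 3. The log2 difference was 5.63 (SE 0.92, edgeR adjusted p = 0.000191), and without replicate 3 it was 3.71 (adjusted p = 8.27e-06). Igkc stood at 4.13, 8.60, 57.5 and 4.18 CPM, against 1.80, 1.89, 2.41 and 2.25 CPM, again without overlap. Its log2 difference was 3.16 (SE 0.72, edgeR adjusted p = 0.00268), and without replicate 3 it was 1.44 (adjusted p = 0.00294).

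Among the lambda constant genes Iglc3 rose, with 16, 2, 8 and 24 reads in CD11c+ brain libraries, against 0, 1, 1 and 3 in ischemic microglia (log2 3.38, SE 0.80, edgeR adjusted p = 0.00343). Iglc1 had 2, 49, 9 and 5 reads, against 6, 2, 4 and 4, and was not called (log2 2.15, SE 0.82, edgeR adjusted p = 0.0505). Replicate 2 held most of the Iglc1 reads. In all, 7 alternatives called Iglc1. Among them were DESeq2 (adjusted p = 0.0142) and the fits without replicate 1, 3 or 4 of CD11c+ brain (edgeR adjusted p = 0.0164 to 0.0412). The fit with replicates 1 and 2 alone was another (edgeR adjusted p = 0.0247). Ighg2b stood at 0.830 to 2.53 CPM in CD11c+ brain, against 0.471 to 0.847 CPM in ischemic microglia (log2 1.04, SE 0.43, edgeR adjusted p = 0.0710). It was called in 3 alternatives, among them DESeq2 (adjusted p = 0.0260) and CD11c+ brain replicates 3 and 4 alone (edgeR adjusted p = 0.0485). Ighg2c had 7 to 20 reads, against 8 to 10, and Ighg3 had 12 to 45, against 12 to 19. Ighg1 had 0 reads in all 4 CD11c+ brain libraries and 6 in the 4 ischemic microglia libraries together.

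In all, 7 of the 211 tested genes were higher in CD11c+ brain cells than in ischemic microglia and 2 were lower, while 19.7% of all tested genes were higher and 19.1% were lower. Of the 186 tested variable genes 4 were higher and none lower, and none was lower at an unadjusted p under 0.05. They were Ighv1-55 (log2 6.13, SE 1.82, edgeR adjusted p = 0.0150), Igkv1-110 (log2 5.32, SE 1.82), Ighv1-53 (log2 5.17, SE 1.79) and Igkv1-117 (log2 4.85, SE 1.57), the last 3 with edgeR adjusted p from 0.0237 to 0.0328. None of these 4 calls was made by limma-voom, without CD11c+ brain replicate 3, or with CD11c+ brain replicates 1 and 2 alone (edgeR adjusted p = 0.219 to 0.933 in that fit). Without that library the log2 differences were 2.17 for Ighv1-55, -0.11 for Igkv1-110, 0.18 for Ighv1-53 and 0.58 for Igkv1-117, with edgeR adjusted p from 0.290 to 0.987. The calls of Ighv1-53 and Igkv1-110 were also lost without any one of the 4 ischemic microglia libraries (edgeR adjusted p = 0.0594 to 0.0796) and with the filter on count sums of at least 10 (0.0618 and 0.0595). That of Igkv1-117 was lost without ischemic replicate 1, 2 or 4 (edgeR adjusted p = 0.0528 to 0.0622).

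**Figure D4:**
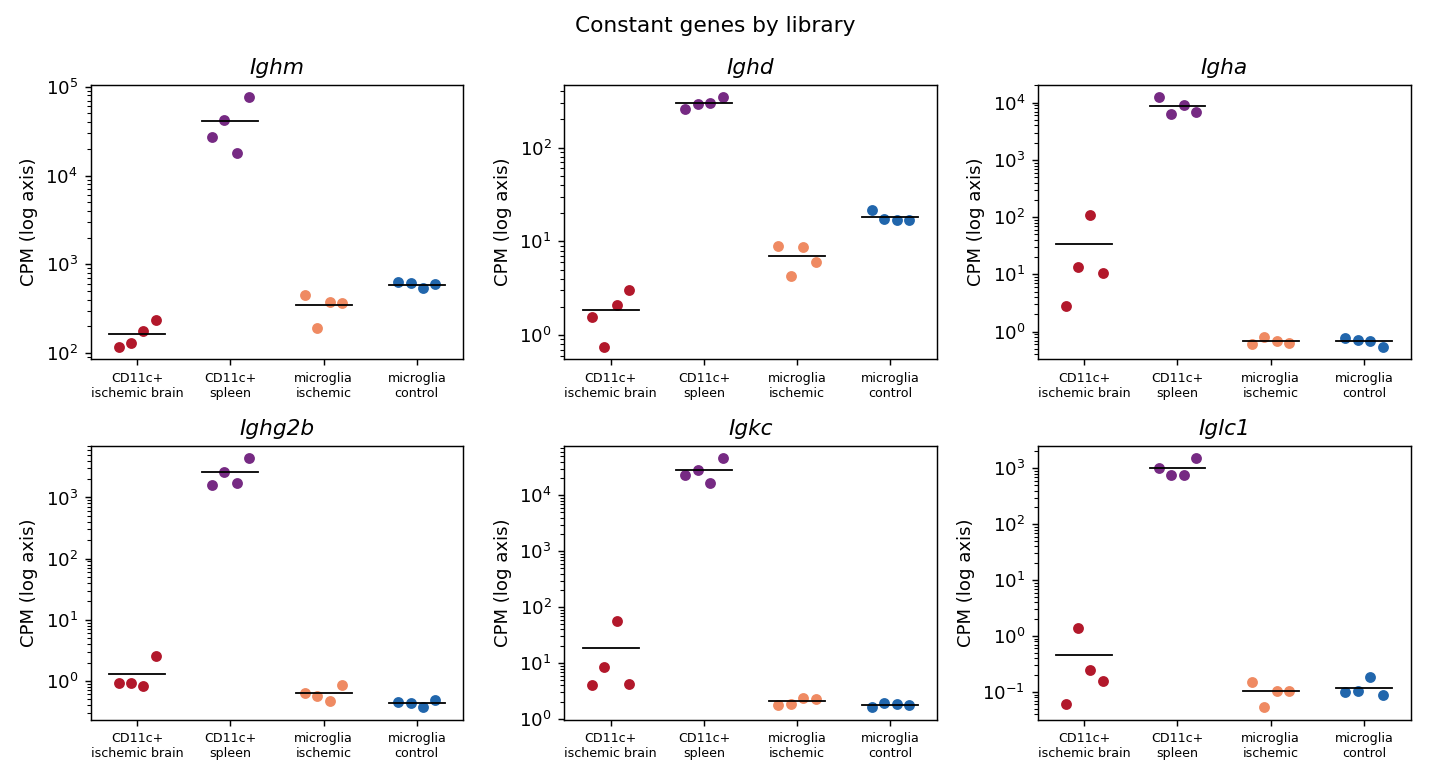
CPM of 6 constant genes in each library, on log axes. Points are libraries and lines are group means (n = 4). Spleen is highest in every panel, CD11c+ brain lies below both microglia groups for Ighd, and CD11c+ brain replicate 3 reaches 108 CPM for Igha and 57.5 CPM for Igkc.

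CD11c+ brain replicate 3 had a profile of its own. It held 1127 variable reads, against 129, 157 and 93 in replicates 1, 2 and 4, and 5 genes took 86.7% of them. Ighv1-55 had 278 reads in replicate 3, against 0, 13 and 0 in replicates 1, 2 and 4. Igkv1-110 had 197, against 2, 1 and 0, and Igkv6-23 had 192, against 2, 1 and 1. Igkv1-117 had 165, against 5, 0 and 1, and Ighv1-53 had 145, against 3, 0 and 0. Among them Igkv1-110 and Igkv1-117 form a close pair, as do Ighv1-55 and Ighv1-53, and their printed ends show how little separates a read of one from a read of the other. The reads of the kappa joining segments in that library were concentrated too, with 75 of 98 on Igkj2. IgA took 37.4% of its heavy chain constant reads (exact binomial interval 36.5% to 38.4%), against 2.22%, 9.06% and 4.25% in replicates 1, 2 and 4. Kappa took 99.1% of its light chain constant reads, against 87.2%, 84.3% and 80.5%.

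The other CD11c+ brain libraries had other leading genes on few reads. Replicate 1 was led by Igkv6-20 with 14 reads, replicate 2 by Igkv3-10 with 37 and replicate 4 by Igkv19-93 with 15. Drawn down to 50 variable reads, replicate 3 is expected to show 9.88 different variable genes, against 27.0, 19.7 and 19.8 in replicates 1, 2 and 4, 25.5 to 33.5 in spleen and 29.5 to 32.9 in ischemic microglia. The ranges of spleen and ischemic microglia overlapped. Of the 20 plasma cell markers 3 had their highest CD11c+ brain level in replicate 3 and 10 in replicate 2, and of the 22 B cell markers 11 had it in replicate 3 and 8 in replicate 4. Some unrelated lists had a like share in replicate 3, with 7 of 14 plasmacytoid and 6 of 12 microglia markers. Of the T and NK cell markers 0 of 16 had it there. The 3 plasma cell markers were Jchain, Mzb1 and Pou2af1, the last of which is also among the B cell markers. Jchain, which links IgA and IgM subunits, stood at 11.8 CPM in replicate 3, against 0.577, 2.30 and 0.854 CPM in replicates 1, 2 and 4. Mzb1, a chaperone of antibody-secreting cells, stood at 0.941 CPM, against 0.0911, 0.252 and 0.0316 CPM. Pou2af1, a B cell coactivator, stood at 0.636 CPM, against 0.243, 0.224 and 0.0633 CPM. Ms4a1, which encodes the B cell surface protein CD20, was not highest there, at 1.77 CPM in replicate 3, against 0.213, 1.12 and 4.11 CPM.

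**Figure D5:**
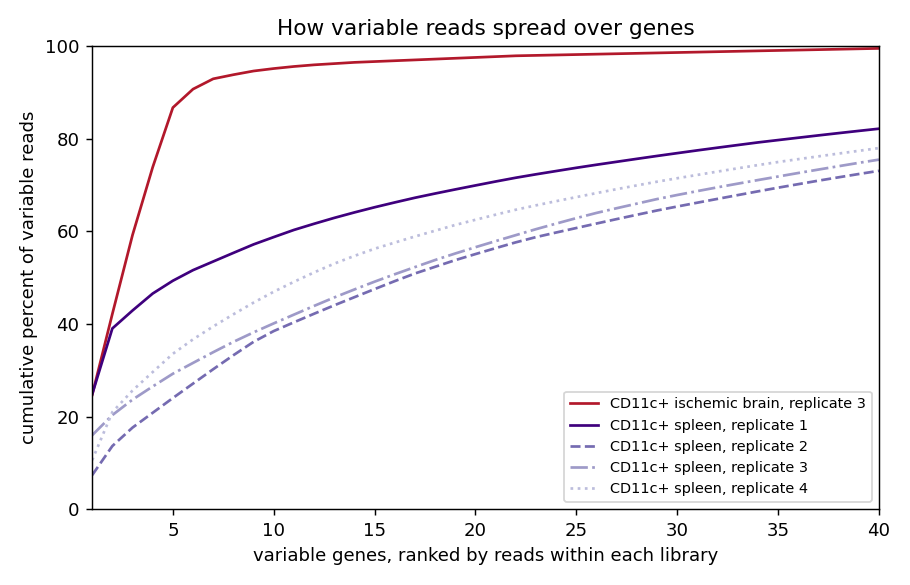
Cumulative percent of variable reads over the 40 leading variable genes of each library, ranked within the library, for CD11c+ ischemic brain replicate 3 and the 4 spleen libraries. The curve of the brain library reaches 86.7% at the fifth gene, where the spleen libraries stand at 24.0% to 49.3%.

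The reads that chose these genes came nearly all from spleen, so their presence there is no finding. In spleen replicate 1, 194 of the 195 variable genes had a read, and all 195 had one in replicates 2 to 4. The 220 genes took 0.0127% to 0.0387% of the library in CD11c+ brain, 10.2%, 12.6%, 7.70% and 21.7% in spleen replicates 1 to 4, 0.0185% to 0.0415% in ischemic microglia and 0.0568% to 0.0653% in control microglia. The constant genes summed to 130, 156, 346 and 258 CPM in CD11c+ brain libraries, against 67438, 85551, 50180 and 158054 CPM in spleen libraries. The variable genes summed to 3.92, 4.40, 31.2 and 2.94 CPM in CD11c+ brain libraries, against 17440, 18188, 11830 and 42796 CPM in spleen libraries. Spleen replicate 4 was the highest and replicate 3 the lowest in both sums.

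Since spleen reads chose the genes, the calls against spleen follow in large part from that choice and support nothing. They are given only beside their background. CD11c+ brain cells were lower than CD11c+ spleen cells in 210 of the 211 tested genes and higher in 0, while 33.0% of all tested genes were lower and 31.2% higher. The gene not called was Ighv1-56 (log2 -2.74, SE 1.40), which had 45 reads in CD11c+ brain replicate 3. CD11c+ spleen cells were higher than control microglia in all 211, while 37.1% of all tested genes were higher and 31.7% lower. Over the 186 tested variable genes the median log2 difference of CD11c+ brain from spleen was -12.44 as fitted and -10.99 with the 101 genes that had no read in CD11c+ brain set to their bound. Ighg1 was at least 9897-fold lower, Ighe at least 122-fold, Iglc4 at least 60.7-fold and Igkj3 at least 362-fold lower in CD11c+ brain than in spleen, each taken against the floor of 3 reads over the group. The variable genes with the largest fitted differences, Igkv15-103, Ighv14-4 and Igkv1-135, had no read in CD11c+ brain and were at least 7850-, 7041- and 7237-fold lower. Those with the smallest were Ighv1-49 (log2 -3.26), Ighv1-55 (log2 -5.63) and Ighv1-53 (log2 -6.52), and all 3 had most of their brain reads in replicate 3. Against control microglia, which had no read of them, Igkv8-24, Igkv6-23 and Igkv5-43 were at least 29827-, 9978- and 8993-fold higher in spleen.

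Among the heavy chain constant genes of spleen Ighm led. It took 63.5%, 75.3%, 55.2% and 69.5% of the heavy chain constant reads in replicates 1 to 4, and Igha took 28.7%, 11.2%, 28.5% and 6.20%. The IgG genes together took 7.15%, 13.0%, 15.4% and 24.0%. Replicates 1 and 3 were high in Igha and replicate 4 was low. Within IgG, Ighg3 stood at 16540 CPM in replicate 4, against 535, 1519 and 1533 CPM in replicates 1 to 3. Without replicate 4 no spleen library had more than 4.77% of its heavy chain constant reads on Ighg3, against 15.1% with it. Ighg2b stood at 1621 to 4395 CPM, Ighg2c at 858 to 5030 CPM, Ighg1 at 74.7 to 321 CPM and Ighe at 0.398 to 4.33 CPM. Ighd stood at 260 to 343 CPM, the narrowest range of the 8 heavy chain constant genes relative to its level. Per kilobase of exon, Igkc averaged 53313 ± 24075 CPM in spleen, Ighm 21622 ± 13498, Igha 3236 ± 1052, Iglc1 2237 ± 792 and Ighd 157 ± 18.1 (SD, n = 4). The order of Igkc and Ighm per kilobase was the reverse in control microglia, where Ighm averaged 313 ± 20.6 CPM per kilobase and Igkc 3.40 ± 0.254.

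Kappa took most of the light chain reads in every library. It took 93.2%, 94.8%, 91.3% and 94.5% of the light chain constant reads in spleen, 90.4% to 93.4% in ischemic microglia and 90.3% to 95.5% in control microglia, the microglia shares on 66 to 100 reads per library. From variable reads the spleen shares were 94.5%, 96.5%, 93.6% and 95.7%. Iglc1 led the lambda genes of spleen at 752 to 1520 CPM, followed by Iglc2 at 394.6 to 763 CPM and Iglc3 at 225 to 382 CPM. Iglc4 had few reads, at 0.846 to 1.74 CPM.

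Joining segments of spleen were used unevenly. Igkj5 took 60.4% of the kappa joining reads in replicate 1, against 33.6%, 22.9% and 32.0% in replicates 2 to 4, and Igkj2 took 47.6% in replicate 3, against 16.1%, 27.3% and 27.2% in replicates 1, 2 and 4. Igkj3, the printed segment without the Phe-Gly-X-Gly codons, took 0.414% to 1.01% in all 4 libraries. The 4 heavy chain segments were closer to each other, with Ighj1 at 23.4% to 31.2%, Ighj2 at 24.0% to 32.6%, Ighj3 at 13.6% to 22.5% and Ighj4 at 22.5% to 31.2%. Joining segments are short, and these shares hold only the reads that were assigned to a segment. The lambda segments had few reads, with Iglj1 at 17.4 to 32.3 CPM and Iglj3 and Iglj3p at or under 3.24 CPM.

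Variable gene usage differed widely between the spleen libraries. Igkv5-39 led in replicates 1 and 3 with 24.8% and 16.0% of variable reads, against 6.29% and 3.95% in replicates 2 and 4. Igkv4-55 led in replicate 2 with 7.36% and took 10.4% in replicate 4, against 1.27% and 4.35% in replicates 1 and 3. Ighv1-22 led in replicate 4 with 10.6% of variable reads, against 0.203%, 0.664% and 0.467% in replicates 1 to 3. Ighv3-6 took 14.2% in replicate 1, against 3.10%, 0.727% and 4.65% in replicates 2 to 4. Igkv8-24 stood at 1707 CPM in replicate 4, against 129, 331 and 85.8 CPM in replicates 1 to 3. Ighv1-80 ranged from 115 to 1331 CPM, Igkv12-46 from 111 to 1194 CPM and Iglv1 from 319 to 812 CPM. For the 186 variable genes with at least 10 reads in each spleen library, the highest share was a median of 4.70 times the lowest, and for 45 genes it was at least 10 times. The effective number of variable genes (inverse Simpson index) was 11.2, 44.1, 26.4 and 28.3 in replicates 1 to 4.

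By family, Ighv1 took 52.9 ± 14.7% of the heavy chain variable reads of spleen with its 47 genes and Ighv3 took 15.4 ± 15.3% with 6. Igkv5 took 23.6 ± 15.7% of the kappa variable reads with 4 genes and Igkv4 took 19.2 ± 10.6% with 26 (SD, n = 4). Along the heavy chain locus, whose described genes span chr12:113254830-116000461, the variable genes were divided by order into 3 blocks. The blocks hold all annotated heavy chain variable genes of the table, pseudogenes left out, of which 34, 32 and 32 are among the described genes in that order. The 38 nearest the joining segments took 19.0 ± 4.07% of the heavy chain variable reads of spleen, the next 38 took 52.0 ± 14.1% and the 37 farthest took 28.9 ± 11.8% (SD, n = 4). Ighv3-6 and Ighv1-22 lie in the middle block.

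Genes that make, assemble or bind antibodies were set beside these values. The counts below stand against 19.7% of all tested genes higher and 19.1% lower in CD11c+ brain than in ischemic microglia, and 17.7% higher and 18.0% lower in ischemic than in control microglia. Of the 22 B cell markers 16 were higher and 3 lower in CD11c+ brain than in ischemic microglia, with a median log2 difference of 2.44, against a median of 0 for all tested genes. Among them Ms4a1 stood at 0.213, 1.12, 1.77 and 4.11 CPM in CD11c+ brain libraries, against 0.0265 to 0.159 CPM in ischemic microglia (log2 3.90, SE 0.73, edgeR adjusted p = 0.0005722). Cd79a, a signalling chain of the B cell receptor, stood at 0.152 to 0.498 CPM, against 0.0261 to 0.213 CPM (log2 1.43, SE 0.43, edgeR adjusted p = 0.01465). Its partner Cd79b was lower, at 9.19 to 10.1 CPM, against 16.5 to 17.9 CPM (log2 -0.82, SE 0.11, edgeR adjusted p = 1.897e-05). All 22 markers were measured in CD11c+ brain, while 3 of them had no read in ischemic microglia and 1 had none in control microglia. Between ischemic and control microglia 3 were higher and 1 lower, with a median log2 difference of 0.23, against -0.05 for all tested genes. The part of B cells in the immunoglobulin differences was not tested.

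Of the 20 plasma cell markers 8 were higher and 3 lower in CD11c+ brain than in ischemic microglia, with a median log2 difference of 0.39, Jchain (log2 3.44, SE 0.80, edgeR adjusted p = 0.003103) and Mzb1 (log2 3.92, SE 1.17, edgeR adjusted p = 0.01456) among the higher. Between ischemic and control microglia 3 were higher and 2 lower, no larger a share than in all tested genes. The 20 markers summed to 2037 to 2619 CPM in CD11c+ brain, 2224 to 2502 CPM in ischemic and 1613 to 2075 CPM in control microglia. This sum too is set by the most abundant genes of the list and does not measure plasma cells. In spleen Jchain stood at 3863 to 7508 CPM and Mzb1 at 288 to 586 CPM. Of the 20 genes for immunoglobulin assembly and switching 15 passed the filter, of which 2 were higher and 2 lower in CD11c+ brain than in ischemic microglia. Rag1, a subunit of the recombinase, was at or under 0.276 CPM in every library.

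Regulators of immunoglobulin transcription were measured in microglia as well as in spleen. Pou2f2, the octamer factor Oct-2, named after its values were seen, stood at 155 to 195 CPM in spleen, 116 to 147 CPM in ischemic and 160 to 175 CPM in control microglia. Its coactivator Pou2af1 stood at 319.9 to 621 CPM in spleen, 0.0261 to 0.106 CPM in ischemic and 0 to 0.0867 CPM in control microglia. Of the 20 regulators 6 of 19 tested were higher and 4 lower in CD11c+ brain than in ischemic microglia, and 2 were higher and 3 lower in ischemic than in control microglia. The median log2 differences were 0.02 and -0.14, against 0 and -0.05 for all tested genes, and between the microglia groups neither share was above that of all tested genes. Of the 18 genes listed as immunoglobulin receptors, which include a signalling chain and an Fc receptor-like protein, 16 were tested. In ischemic against control microglia 3 were higher and 2 lower, shares near the background, and the median log2 difference of -0.05 was that of all tested genes. The higher ones were Fcgr2b, Fcer1g and Fcgr4, an activating IgG receptor at 108 to 144 CPM in ischemic and 15.2 to 26.3 CPM in control microglia (edgeR adjusted p = 5.106e-08). The lower ones were Fcrl1, an Fc receptor-like protein of B cells (log2 -0.40, SE 0.09, edgeR adjusted p = 0.002632) and Trim21, a cytosolic antibody receptor (log2 -0.39, SE 0.15, edgeR adjusted p = 0.04855). Fcgr4, Fcrl1 and Trim21 were named after their values were seen. Fcgr2b, the inhibitory IgG receptor, stood at 507 to 678 CPM, against 366 to 444 CPM (log2 0.49, SE 0.15, edgeR adjusted p = 0.0186). Fcer1g, the shared signalling chain of Fc receptors, stood at 714 to 940 CPM, against 465 to 629 CPM (log2 0.64, SE 0.15, edgeR adjusted p = 0.003703). Of the 20 B cell receptor signalling genes 5 were higher and 2 lower in ischemic than in control microglia, and 5 were higher and 8 lower in CD11c+ brain than in ischemic microglia.

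The remaining cell type lists moved as follows in CD11c+ brain against ischemic microglia. Of 16 conventional dendritic cell markers 14 were higher and 1 lower. That list includes Itgax, whose promoter drives the sorted reporter. Of 14 plasmacytoid markers 7 were higher and 5 lower, and of 16 T and NK cell markers 8 were higher and 4 lower. The T and NK cell markers summed to 6.33 to 23.4 CPM in CD11c+ brain, 221 to 559 CPM in spleen and 7.44 to 17.7 CPM in ischemic microglia. Of 12 erythroid and splenic macrophage markers 11 were tested, with 1 higher and 4 lower, and they summed to 142 to 183 CPM in CD11c+ brain, 2806 to 7460 CPM in spleen and 468 to 585 CPM in ischemic microglia.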

How the data were processed

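RNA from sorted cells was sequenced as stranded poly(A) libraries, 4 in each of 4 groups, per the labels' protocols. The values are read counts per gene as deposited by the authors, not normalized. The submitters' processing notes name FastQC 0.11.5, STAR 2.5.3a and GRCm38; the counting program, its strand setting and the annotation release stay unstated (not given in the sources used here). Genes were matched to GENCODE M21 by Ensembl ID. A read that spans variable, joining and constant sequence, or fits several near-identical genes, may be lost or assigned to one of them, so ratios between segments depend on the counting.

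The counts were scaled by TMM and tested with edgeR 4.0.16 (filterByExpr, quasi-likelihood F test, all 4 groups in 1 fit, Benjamini-Hochberg adjustment over 16345 genes) in R 4.3.3, with DESeq2 1.42.0 and limma 3.58.1 as alternatives. The fit was tested on simulated data. SE is the absolute log2 difference divided by the square root of F. No library pair differed by less than sampling noise. All constant and joining genes are named; variable genes are named where they had one of the 8 highest mean levels, the 3 largest called changes per direction, or led a library. Of each gene list, members with a high level and defining genes are named. The smallest called differences from spleen and the further variable genes of CD11c+ brain replicate 3 were added after their values were seen. Members and lists were chosen with earlier results of these data known.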

Additional observations from a re-analysis of the deposited data

Results flagged for a closer look

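Among 119 sets of 4 libraries, 25 had a library whose gap to the nearest other exceeded Dixon's critical share of the range at the 95% level; chance flags about 1 in 20 such sets, and many of these values share a library.

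CD11c+ brain replicate 3 held most of them. It stood at 108 CPM for Igha (2.79 to 13.3 CPM in the other 3), 57.5 CPM for Igkc (4.13 to 8.60), 0.332 CPM for Ighj2 (0 to 0.0304) and 2.08 CPM for Igkj2 (0.0304 to 0.0560). The variable genes Igkv1-110 (5.45 CPM), Igkv1-117 (4.57 CPM), Igkv6-23 (5.31 CPM), Ighv1-55 (7.69 CPM) and Ighv1-53 (4.01 CPM) were at or under 0.364 CPM in the other 3. Its variable genes summed to 31.2 CPM (2.94 to 4.40) and its joining genes to 4.81 CPM (0.784 to 0.823). It had 5.18 heavy chain variable reads per 100 constant reads (0.312 to 1.09), and Ighm took 61.3% of its heavy chain constant reads (89.4% to 94.2%).

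The other CD11c+ brain libraries stood apart for single genes. Ighg3 was at 1.37 CPM in replicate 1 (0.380 to 0.448 in the others) and Ighg2b at 2.53 CPM in replicate 4 (0.830 to 0.925). In replicate 2 Iglc1 was at 1.37 CPM (0.0608 to 0.249) and Iglv1 at 0.504 CPM (0 to 0.0633).

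Spleen replicate 4 was high for Ighg3 at 16540 CPM (535 to 1533), Iglj1 at 32.3 CPM (17.4 to 19.0), Ighv1-22 at 4538 CPM (35.4 to 121) and Igkv8-24 at 1707 CPM (85.8 to 331).

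Ischemic microglia replicate 2 was low for Ighj1 at 0.717 CPM (1.51 to 1.59) and for the sum of the joining genes at 1.14 CPM (2.33 to 2.46). Igha took 0.402% of its heavy chain constant reads (0.131% to 0.175%). Control microglia replicate 1 was high for Ighd at 21.7 CPM (16.8 to 17.3).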

How the results depend on the processing

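Alternatives were other scalings (RLE, library totals, scaling without the immunoglobulin genes), another filter, DESeq2, limma-voom, fits of both groups alone, each library left out, and CD11c+ brain replicates 1 and 2 or 3 and 4 alone. The count of 9 genes called between CD11c+ brain and ischemic microglia became 16 with DESeq2, 5 with limma-voom and 4 in the libraries of both groups alone, where 7 of the genes were tested, and was 5 to 11 with a library left out. The count of 5 between ischemic and control microglia became 2 with limma-voom and was 3 to 5 with a library left out. With a library left out, Igkv1-110 ranged from -0.11 (log2), a reversal without CD11c+ brain replicate 3, to 6.13, and it was 6.31 with CD11c+ brain replicates 3 and 4 alone. The kappa share of ischemic microglia moved to 89.7% from variable reads, and the Igha share of control microglia to 0.0789% per kilobase. The effective number of variable genes (inverse Simpson index) was 6.22 to 21.3 in CD11c+ brain, 19.1 to 31.4 in ischemic and 19.2 to 26.5 in control microglia. The number expected at 50 reads is a different measure and does not compare with it directly. It averaged 19.1 in CD11c+ brain, 30.6 in ischemic and 33.7 in control microglia. For single genes, 540 alternative values kept direction and call, 12 gained a call, 42 lost one and 1 reversed. Without CD11c+ brain replicate 3 the variable genes of that group averaged 3.75 CPM, the lower end of a range to 13.2 CPM over libraries left out.

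Library totals moved the median log2 difference of all tested genes to 0.097 (CD11c+ brain against ischemic microglia), -0.199 (ischemic against control microglia), -0.302 (CD11c+ brain against spleen) and 0.336 (spleen against control microglia). The split of higher and lower calls over all genes then became 3964 and 2388, 2140 and 4242, 3807 and 7113, and 7406 and 4184 in that order of comparisons, against 3213 and 3130, 2889 and 2945, 5097 and 5390, and 6059 and 5186 with TMM. The cause of these shifts was not tested. No paired analysis was possible because the replicate numbers used here follow accession order and groups share too few title numbers. Within a mouse line only CD11c+ brain replicate 1 and spleen replicate 4 share a title number. Whether that number marks a shared animal is not stated. Microglia held 50 to 80 variable reads per library, so single variable genes could not be compared at this depth.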
